A study of Homo sapiens with 8 samples.

Results

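The transcripts described here were the long non-coding RNAs (lncRNAs) of Huh7 cells that carry a systematic symbol. A gene was a member when its symbol began with LINC and a number, or ended in -AS, -DT or -IT with or without a number, and when its mean over all 8 libraries was at least 0.5 FPKM (fragments mapped to a gene, scaled to its length and to the mapped fragments of the library). Of 17076 genes listed, 795 had such a symbol and 405 of these reached the minimum. They comprised 141 genes with a LINC number (a name mostly given to intergenic genes), 228 named as antisense to another gene (-AS), 30 named as divergent transcripts that start beside a gene and run away from it (-DT) and 6 named as intronic (-IT). The members just inside the minimum were LINC00471 at 0.501 and LINC01619 at 0.504 FPKM, and just outside it were ZMIZ1-AS1 at 0.496 and HOXC13-AS at 0.495 FPKM. Members were thus chosen by their symbol and selected on their FPKM, so levels are given as a description, with no test.

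Huh7 is an established human hepatocellular carcinoma cell line. Poly(A)-selected RNA of 4 groups with 2 libraries each was sequenced: cells given a scrambled siRNA (siControl), cells given an siRNA against UPF1 (siUPF1), cells with a MYC vector that served as control (MYC), and cells with a vector for MYC-tagged UPF1 (MYC-UPF1). The study asked how UPF1 acts on the growth of liver cancer cells and whether nonsense-mediated mRNA decay is involved, and siUPF1 was compared with siControl (depletion) and MYC-UPF1 with MYC (overexpression). The time of harvest, the number of separate cultures and the siRNA used for sequencing are not given in the sources used here, so p-values measure only the spread between these libraries, which may be technical.

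UPF1 is an RNA helicase at the centre of nonsense-mediated mRNA decay (NMD), a pathway that degrades transcripts on which translation stops too early, classically upstream of an exon junction. lncRNAs lack long reading frames, but many that reach the cytoplasm are bound by ribosomes at short ones, and spliced lncRNAs such as host transcripts of small nucleolar RNAs are known NMD substrates. Antisense and divergent lncRNAs share a locus, and often a promoter region, with a coding gene, so the gene they are named after is a natural point of comparison.

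UPF1 itself was at 44.5 and 47.4 FPKM in the siControl libraries and at 20.7 and 21.9 in siUPF1. In MYC it was at 45.1 and 57.4 FPKM, and in MYC-UPF1 at 2835 and 2484. The targeted gene thus moved as labelled in each comparison. Hepatocyte genes were high in all 8 libraries, with ALB between 6550 and 8371 FPKM and AFP between 11093 and 12505. CD68 and PECAM1, which mark leukocytes and endothelium, stayed between 0.535 and 3.84 FPKM, and COL3A1 and KRT19 stayed under 0.5. PTPRC, COL1A1, VWF and KRT7 were looked for and are not among the genes listed, so they have no value. Summed FPKM ran from 403902 to 455592 between libraries, and the read depth behind the values is unknown.

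Libraries correlated less closely over members than over all genes. On log2(FPKM + 1), the siControl libraries correlated at 0.9785 over members and at 0.9952 over all genes at the minimum. Members reached a mean of 43.2 FPKM and all genes 13371. A narrower range lowers a correlation, so this does not show that members repeated less well. The siUPF1 libraries correlated at 0.9704 over members, while siUPF1 replicate 1 correlated with the siControl libraries at 0.9696 and 0.9722, so this library was about as close to the controls as to its own replicate. In the vector experiment the MYC libraries correlated at 0.9786 over members and the MYC-UPF1 libraries at 0.9770, and MYC replicate 1 and MYC-UPF1 replicate 2 at 0.9833. The median member differed between replicates by 0.12 to 0.14 on the log2 scale. Results below are therefore also given without single libraries where that changed them, and a group left with 1 library was then assumed to vary like the others.

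The start of exon 1 of TBX2-AS1 is shown because this member passed the test in both comparisons, in opposite directions. TBX2-AS1 lies at chr17:59470816-59488916 on the minus strand of GRCh37 (the build also called hg19), across TBX2, which encodes a T-box transcription factor. The 300 bases shown open the 570-base exon 1 of its longest GENCODE transcript, at chr17:59476668-59476967. This exon lies upstream of the TBX2 start, and this transcript runs away from TBX2. Only the span of the whole gene crosses it. The strand of the transcript is printed, and it holds 0 ATG in this stretch, whose GC content is 75.7%.
TBX2-AS1: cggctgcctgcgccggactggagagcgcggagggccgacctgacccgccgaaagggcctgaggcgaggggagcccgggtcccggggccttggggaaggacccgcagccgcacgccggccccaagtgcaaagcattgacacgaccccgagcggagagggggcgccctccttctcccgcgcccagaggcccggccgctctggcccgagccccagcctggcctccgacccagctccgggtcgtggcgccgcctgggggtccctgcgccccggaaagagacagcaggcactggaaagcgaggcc

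Promoter sequence is shown for MRPL23-AS1, which was also called in both comparisons, and for PRDM16-DT and NUP50-DT, divergent members that moved together with or against the gene beside them. The windows come from RefSeq (250 bases before to 50 after the start of the gene, a GRCh38 table that held 272 of the 405 members) and were located on GRCh37 by exact match: MRPL23-AS1 at chr11:2011101-2011400, PRDM16-DT at chr1:2984240-2984539 and NUP50-DT at chr22:45559613-45559805, all on the minus strand. RefSeq places the 3 starts inside the GENCODE genes, and the whole PRDM16-DT window lies within its gene (chr1:2976175-2985655), so it is not the stretch between PRDM16-DT and PRDM16. The last is cut to 193 bases, since the other 107 lie in an annotated untranslated region. Capitals mark a CCAAT box in MRPL23-AS1, a CCAAT box, a GC box and an E-box in PRDM16-DT and an E-box in NUP50-DT, none of which overlaps another. Both strands were searched, and the CCAAT and GC boxes shown were found on the strand opposite to the one printed.
MRPL23-AS1: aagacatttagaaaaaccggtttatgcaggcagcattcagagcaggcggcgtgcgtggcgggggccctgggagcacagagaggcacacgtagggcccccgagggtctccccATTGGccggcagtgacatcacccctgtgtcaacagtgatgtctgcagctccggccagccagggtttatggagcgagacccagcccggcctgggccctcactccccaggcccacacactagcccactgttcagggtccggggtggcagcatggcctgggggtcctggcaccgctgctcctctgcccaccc
PRDM16-DT: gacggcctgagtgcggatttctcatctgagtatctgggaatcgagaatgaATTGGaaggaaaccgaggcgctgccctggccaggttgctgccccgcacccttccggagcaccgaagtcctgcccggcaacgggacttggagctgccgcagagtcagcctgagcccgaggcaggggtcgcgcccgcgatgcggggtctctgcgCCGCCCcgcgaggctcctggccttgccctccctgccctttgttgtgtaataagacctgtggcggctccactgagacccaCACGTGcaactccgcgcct
NUP50-DT: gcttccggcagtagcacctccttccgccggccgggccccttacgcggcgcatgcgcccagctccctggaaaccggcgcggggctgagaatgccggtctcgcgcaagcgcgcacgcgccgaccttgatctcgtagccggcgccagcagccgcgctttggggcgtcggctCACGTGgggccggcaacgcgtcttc

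Over the 272 members with a RefSeq promoter, 58.5% held a GC box (GGGCGG), against 44.6% of all 27305 promoters in that table. A CCAAT box, searched as those letters, was found in 43.0% of the members' promoters and 35.7% of all. An E-box (CACGTG) was found in 8.46% and 7.43%, the cyclic AMP response element (TGACGTCA) in 2.21% and 1.98%, and a TATA box (TATAAA) in 6.99% and 12.0%. The median promoter of a member held 22 CG dinucleotides, and that of all genes 14. These are matches of letters, not binding sites. Members had to reach the FPKM minimum in Huh7 cells, while all promoters of that table were counted whatever the expression of their gene. The 2 sets thus differ in expression as well as in kind of gene. Whether the differences remain against genes at the minimum was not tested, so they are not read as particular to members.

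GENCODE listed 394 of the 405 members, 386 of them as lncRNA, 7 as transcribed pseudogenes and 1 (LINC00999) as protein coding. Their longest transcripts had a median of 3 exons and 2543 bases, against 7 exons and 3595 bases over all genes at the minimum. The median GC content was 47.9% for members and 47.7% for all genes. Positions fitted the symbols: 109 of 136 placed LINC genes overlapped no coding gene, all 194 antisense members whose partner could be placed lay on the opposite strand to it, and 26 of 29 such divergent members started within 1000 bases of their partner's start, at a median distance of 136 bases. All 5 placed intronic members lay within their host gene on the same strand.

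Members were expressed at low levels. Their median was 1.33 FPKM, compared with 6.78 FPKM for all genes at the minimum, 137 members averaged under 1 FPKM and 12 averaged at least 10 FPKM. Together they made up between 0.211% and 0.291% of the summed FPKM of a library. The highest was FGD5-AS1, with 47.9 and 51.2 FPKM in siControl, 47.3 and 37.2 in siUPF1, 39.5 and 40.4 in MYC and 38.1 and 43.6 in MYC-UPF1. LINC01419 followed with a mean of 40.3 FPKM. LINC00261, a lncRNA of definitive endoderm that lies 2356 bases from FOXA2, was at 30.4 and 32.3 FPKM in siControl, 28.5 and 25.4 in siUPF1, 26.5 and 25.5 in MYC and 24.8 and 26.6 in MYC-UPF1. THUMPD3-AS1, LINC02381, LINC01963, LINC01578, MAPKAPK5-AS1, PSMA3-AS1 and LINC02313 completed the first 10 members. Of these 10, LINC01578 and LINC01419 passed the test in the depletion comparison and 0 passed it in the overexpression comparison. Over all genes tested 21.5% and 1.43% passed it, so nothing is read from these counts.

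The first neighbours in this order were not separated by their spread over libraries. FGD5-AS1 ranged from 37.2 to 51.2 FPKM and LINC01419 from 31.2 to 55.0. THUMPD3-AS1, which ranged from 15.5 to 29.1 FPKM, overlapped LINC02381, which ranged from 19.3 to 22.6.

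After UPF1 depletion, most members that changed were higher. Of 402 members tested, 57 (14.2%) rose and 9 (2.24%) fell, judged by limma with p at 0.05 before adjustment. A gene that passed it is referred to as called. The share called was 16.4% of members and 21.5% of all 13535 genes tested, of which 16.0% rose and 5.51% fell, the members' share being below that of all genes. The median log2 fold change was 0.087 for members and 0.057 for all genes, on the log2(FPKM + 1) scale, which understates the change of genes with low FPKM. After Benjamini-Hochberg adjustment over all genes 0 members and 0.0369% of genes passed 0.05 (limma). At 0.1, 11 of the 402 members and 507 of the 13535 genes passed, so the members' count is not read as particular to them. Values of bulk RNA cannot tell fewer cells with a transcript from less of it per cell. In the other 3 members the mean over the 4 libraries was under 0.5 FPKM, and they were not tested.

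All classes of symbol took part. Among LINC genes 20 of 140 rose and 5 fell, among antisense members 30 of 226 rose and 3 fell, among divergent members 5 of 30 rose and 1 fell, and among intronic members 2 of 6 rose and 0 fell. Each called member had both siUPF1 libraries beyond both siControl libraries. Without siUPF1 replicate 1 there were 88 rises and 31 falls, and without the other libraries 39 to 77 rises and 7 to 10 falls. How rises and falls balanced changed when libraries were scaled otherwise. Counts over all genes are not given here for these scalings or for the runs without a library. The shifts are therefore not read as particular to members. Quantile normalization gave 35 rises and 26 falls, centring each library on its median gave 44 and 17, and taking out, library by library, the dependence of the values on GC content and length of the transcript (GC-adjusted values) gave 51 and 26.

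On log2(FPKM + 1), the largest rise was that of TBX2-AS1 (exon 1 above). That scale understates the change of members with lower FPKM, such as PRDM16-DT, so the order depends on the pseudocount. Its FPKM was 3.44 and 3.51 in siControl and 4.99 and 6.75 in siUPF1, without overlap. The log2 fold change was 0.61 (standard error, SE, 0.134, Benjamini-Hochberg adjusted p = 0.0911, limma), and 0.33 on GC-adjusted values. TBX2 itself overlapped between the groups, at 14.5 and 14.0 against 13.3 and 15.6 FPKM.

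LINC01578 was the most abundant of the rises. This lncRNA, also known as CHASERR, lies at chr15:93362770-93442931 on the plus strand, beside and partly across CHD2 on the same strand, a chromatin remodeller whose level it is known to restrain in cis. It rose from 16.3 and 17.6 to 24.0 and 24.5 FPKM, and both siUPF1 libraries lay well above both siControl libraries. Its log2 fold change of 0.49 (SE 0.0921, adjusted p = 0.0793, limma) was called whichever library was left out and under each scaling. CHD2 was at 9.29 and 8.96 FPKM in siControl and 9.36 and 10.9 in siUPF1, and was not called.

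PRDM16-DT, whose GENCODE start lies 77 bases from that of PRDM16, a zinc-finger regulator known from brown fat and haematopoietic cells, rose from 0.502 and 0.448 to 1.35 and 0.980 FPKM. The log2 fold change was 0.55 (SE 0.118, adjusted p = 0.0874, limma), 1.12 with a pseudocount of 0.1, and 0.26 and no longer called on GC-adjusted values. MRPL23-AS1 (chr11:2004467-2011223), opposite the mitochondrial ribosomal protein gene MRPL23, rose from 0.810 and 0.842 to 1.47 and 1.66 FPKM, a log2 fold change of 0.49 that was 0.84 with a pseudocount of 0.1 and 0.23 on GC-adjusted values. MRPL23 was at 34.3 and 34.7 FPKM against 35.8 and 45.3 and was not called.

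TNRC6C-AS1, named after a gene of the GW182 family that acts in microRNA silencing, was at 1.93 and 2.44 FPKM in siControl and 3.24 and 4.06 in siUPF1. LINC01140 was at 0.563 and 0.682 FPKM against 1.26 and 1.28. Their log2 fold changes were 0.54 (SE 0.130, limma adjusted p = 0.102) and 0.49 (SE 0.10, limma adjusted p = 0.0835), and both were called whichever library was left out. With a pseudocount of 0.1 LINC01140 was at 0.93.

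The other 4 of the 10 largest rises rested more on single libraries. LINC02562 was at 1.29 and 2.49 FPKM in siControl and 3.91 and 2.52 in siUPF1, and its log2 fold change of 0.56 was 0.25 and not called without siControl replicate 1, 0.86 without siControl replicate 2 and 0.32 without siUPF1 replicate 1. LINC00304 was at 5.58 and 7.51 against 7.98 and 11.4 FPKM, and its 0.49 was 0.31 and not called without siControl replicate 1 and 0.26 without siUPF1 replicate 2. Both lost the call under quantile normalization and median centring. AGAP2-AS1, at 1.78 and 2.43 against 3.31 and 3.34 FPKM, had 0.49 and was at 0.33 and not called without siControl replicate 1. LINC01659, at 1.04 and 0.950 against 1.51 and 2.29 FPKM, had 0.53, and 0.33 without siUPF1 replicate 2. On GC-adjusted values, the log2 fold changes of LINC00304, AGAP2-AS1 and LINC01659 were 0.28, 0.26 and 0.31, and LINC01659 alone among these 3 was still called.

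**Figure D1:**
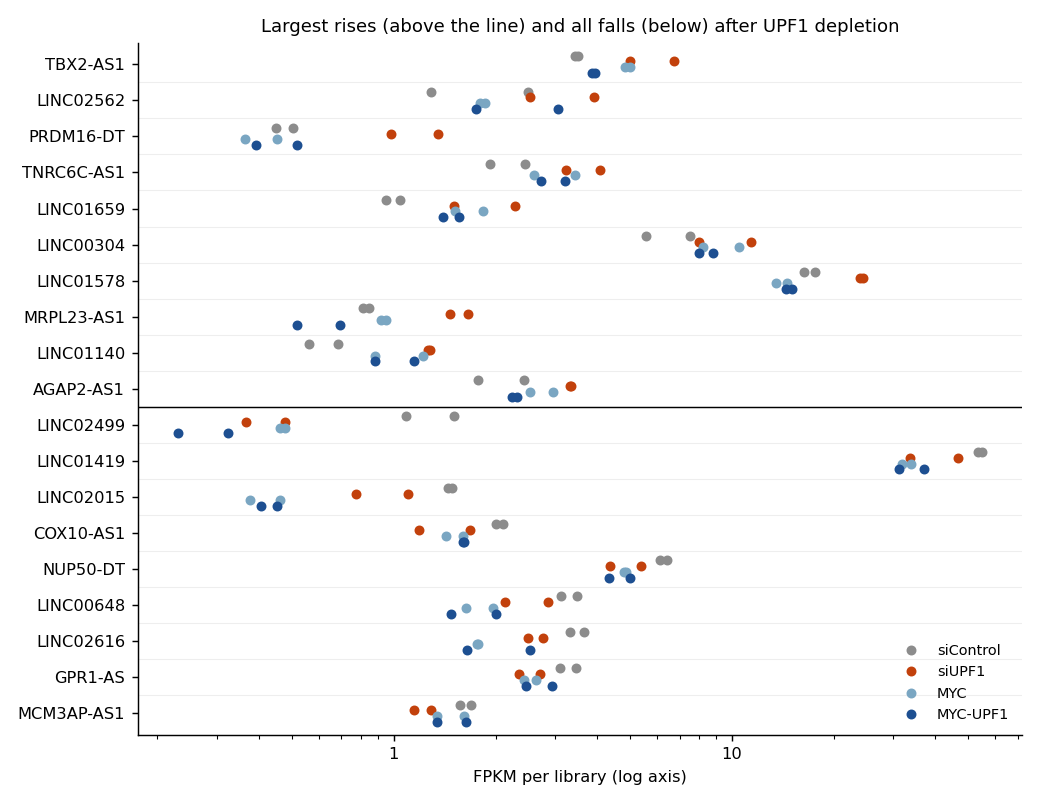
FPKM of the 10 largest rises and the 9 falls after UPF1 depletion, 1 point per library on a log axis, coloured by group. The siUPF1 points lie beyond both siControl points in each row, closest for LINC02562 (2.49 and 2.52), and for 8 of the 9 falls the MYC points also lie below both siControl points, the exception being MCM3AP-AS1. Both MYC libraries lay below both siControl libraries for 41.2% of all genes at the minimum, and nothing is read from the count.

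Falls were fewer. All 9 were also called under quantile normalization, under median centring and on GC-adjusted values. Of the 55 rises with a value under all of these, 23 were. Each of these scalings lowered the members' median log2 fold change, which favours falls over rises, so the contrast does not rank them. The largest fall was that of LINC02499, which lies on chr4:74374520-74399845, plus strand, 4802 bases beyond the end of AFM, the afamin gene of the albumin family. It fell from 1.09 and 1.51 FPKM in siControl to 0.478 and 0.366 in siUPF1, a log2 fold change of -0.69 (SE 0.123, adjusted p = 0.0793, limma) that was -1.42 with a pseudocount of 0.1. AFM, on the same strand and looked at, as the nearest coding gene, after the values of LINC02499 were seen, fell with it, from 2.69 and 3.34 to 0.994 and 1.14 FPKM (limma adjusted p = 0.0584). Of the other albumin genes of this locus, AFP overlapped between the groups (11130 and 12217 against 11695 and 11862 FPKM) and ALB (6971 and 7668 against 6550 and 6586 FPKM) was not called. Whether transcripts run from AFM into LINC02499 was not tested.

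LINC01419, described in hepatocellular carcinoma, fell from 53.4 and 55.0 to 46.7 and 33.6 FPKM, and its siUPF1 libraries differed more from each other than its siControl libraries did. The log2 fold change of -0.44 was -0.21 without siUPF1 replicate 2 and -0.67 without siUPF1 replicate 1, and was called in each case. COX10-AS1, whose start lies 5 bases from that of COX10, a gene of haem A synthesis that it overlaps, went from 2.1 and 2.01 to 1.68 and 1.19 FPKM (log2 fold change -0.34, not called without siControl replicate 1, at -0.31, or siUPF1 replicate 2, at -0.19). NUP50-DT, divergent to a nucleoporin gene, went from 6.44 and 6.11 to 5.40 and 4.36 FPKM (-0.31, not called without siControl replicate 1, at -0.28, siControl replicate 2, at -0.35, or siUPF1 replicate 2, at -0.18).

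Of the other 5 falls, LINC02015 (1.45 and 1.49 against 1.10 and 0.771 FPKM, log2 fold change -0.35) was not called without siControl replicate 2 (-0.34) or siUPF1 replicate 2 (-0.23), and LINC00648 (3.12 and 3.49 against 2.86 and 2.13 FPKM, -0.31) without siControl replicate 2 (-0.25) or siUPF1 replicate 2 (-0.16). LINC02616 (3.33 and 3.64 against 2.76 and 2.49 FPKM, -0.31) lost the call without siControl replicate 1 (-0.36) or siControl replicate 2 (-0.26), and was at -0.18 on GC-adjusted values. GPR1-AS, antisense to the chemerin receptor gene CMKLR2 and known as an imprinted transcript, was at 3.10 and 3.46 against 2.35 and 2.71 FPKM, with -0.28, and lost the call without siControl replicate 1 (-0.34), siControl replicate 2 (-0.22) or siUPF1 replicate 1 (-0.21). MCM3AP-AS1, opposite the gene of the mRNA export factor GANP, was at 1.69 and 1.57 against 1.29 and 1.15 FPKM, with -0.24, and lost the call without siControl replicate 1 (-0.21), siControl replicate 2 (-0.28) or siUPF1 replicate 2 (-0.20). Only 2 of the 9 falls, LINC02499 and LINC01419, were thus called whichever library was left out.

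The share of members that rose was highest among the transcripts with the highest GC content. Of the members with the lowest GC content (31.3% to 42.2%), 9.09% rose and 5.05% fell, and of those with the highest (53.4% to 69.9%), 22.4% rose and 0% fell. Over all genes in the same ranges of GC content the contrast was wider, with 3.30% rising and 11.0% falling in the lowest range and 33.0% and 1.25% in the highest. Spearman's rho between GC content and log2 fold change was 0.291 over 391 members and 0.540 over 12839 genes, which share libraries and are not independent. TBX2-AS1, MRPL23-AS1, PRDM16-DT, LINC01659 and AGAP2-AS1 had GC contents of 68.9%, 65.0%, 64.7%, 64.4% and 63.5%. They were among the 10 largest rises, of which the others are not listed here. Of the 9 falls, 8 were under 50%, but so was the median of all members, at 47.9%. Beyond the GC-adjusted values given, the part of this trend in each call was not tested.

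After depletion, calls were also counted by level and exon number, without a test. The share called was 16.4% of members under 1 FPKM, 13.4% between 1 and 2, 20.4% between 2 and 5 and 16.7% from 5 FPKM, against 16.7%, 19.7%, 24.7% and 21.8% of all genes in the same ranges. Of members whose longest transcript had 1 exon, 6 of 60 rose and 0 fell. With 2 exons 15.1% rose, with 3 or 4 exons 12.3%, and with 5 or more 18.9%. Over all genes the share that rose was 10.9%, 16.3%, 17.6% and 16.5%. Members whose start lay within 1000 bases of a coding start on the other strand rose in 11.4% of 158 cases and the others in 15.9% of 233.

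Few members were called after UPF1 overexpression, and the count moved with the processing. Of 374 members tested, 7 rose and 4 fell by the same rule, or 2.94%, against 1.43% of all 13251 genes tested, of which 0.619% rose and 0.807% fell. Without MYC-UPF1 replicate 1 there were 13 rises and 10 falls, 4 rises and 10 falls without MYC replicate 1, and 3 rises and 7 falls without MYC-UPF1 replicate 2. The 11 calls became 21 on GC-adjusted values, 20 with no FPKM minimum, 3 with a minimum of 1 FPKM, 4 with the replicate number as a block and 42 with the numbers crossed, a pairing added after seeing the data. The matching counts over all genes are not given here, so these shifts are not read as particular to members. MYC replicate 1 correlated better with MYC-UPF1 replicate 2 than with its own replicate (0.9833 and 0.9786), and MYC replicate 2 with MYC-UPF1 replicate 1 (0.9813). The main test had no term for this, and how far it moved the count of calls was not tested. Of the members 0 passed an adjusted p of 0.05, against 0.00755% of all genes, and every member had an adjusted p of 1.000 (limma with Benjamini-Hochberg adjustment). The median log2 fold change was -0.011 for members and -0.014 for all genes. The calls lay at low levels, with 8 of the 106 members under 1 FPKM (7.55%) and 0 of the 48 from 5 FPKM called, as they did over all genes, with 4.47% and 0.645% called in the same ranges. The other 31 members were under the minimum in these libraries.

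CATIP-AS1, named after a gene of ciliogenesis, had the largest rise. It was at 0.542 and 0.267 FPKM in MYC and 0.777 and 0.940 in MYC-UPF1, with a log2 fold change of 0.41 (SE 0.120) that was 0.27 and not called without MYC replicate 2. HNF4A-AS1, opposite the gene of the hepatocyte nuclear receptor HNF4A, rose from 0.503 and 0.617 to 0.889 and 1.07 FPKM. Its log2 fold change of 0.34 (SE 0.107) was 0.71 with a pseudocount of 0.1, and was 0.29 without MYC replicate 1 and 0.28 without MYC-UPF1 replicate 2, where the call was lost. HNF4A was at 41.5 and 49.0 FPKM in MYC and 42.8 and 38.5 in MYC-UPF1, which overlap.

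Further rises were smaller. LINC02041 went from 0.904 and 0.699 to 1.10 and 1.21 FPKM (log2 fold change 0.26) and FOXN3-AS1 from 0.702 and 0.739 to 0.936 and 1.18 (0.26). MELTF-AS1 went from 0.818 and 0.952 to 1.27 and 1.21 FPKM (0.25), and BDNF-AS, opposite the gene of the brain-derived neurotrophic factor, from 0.471 and 0.484 to 0.665 and 0.806 (0.23). In each of these 4 members both MYC-UPF1 libraries lay above both MYC libraries. Their calls were all lost without MYC replicate 2 and also without MYC-UPF1 replicate 2, where the log2 fold changes were 0.18 and 0.22 for LINC02041, 0.27 and 0.17 for FOXN3-AS1, 0.30 and 0.27 for MELTF-AS1 and 0.24 and 0.17 for BDNF-AS. Without MYC replicate 1 the calls of FOXN3-AS1 (0.24), MELTF-AS1 (0.20) and BDNF-AS (0.22) were lost as well, and without MYC-UPF1 replicate 1 those of LINC02041 (0.29) and MELTF-AS1 (0.23). UBE2D3-AS1, opposite the gene of a ubiquitin-conjugating enzyme, fell from 1.03 and 0.919 to 0.712 and 0.589 FPKM, with -0.26, and was at -0.22 and -0.20 and not called without MYC replicate 1 or MYC-UPF1 replicate 2.

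The other 3 falls were also rises of the depletion comparison. CDC37L1-DT, TBX2-AS1 and MRPL23-AS1 were called in both comparisons, higher after depletion and lower after overexpression. These were 3 of the 371 members tested in both (0.809%), against 31 of 13105 genes (0.237%), and 0 members were called in both in the same direction. Without MYC replicate 2 the count of members with opposite calls was 1. The comparisons have no library in common, but their controls differed. For all 3 members both MYC libraries lay above both siControl libraries, as for 25.7% of all genes at the minimum. The mean log2 differences were 0.29 for CDC37L1-DT, 0.40 for TBX2-AS1 and 0.081 for MRPL23-AS1. For TBX2-AS1 both MYC-UPF1 libraries also lay above both siControl libraries. Each change is thus against its own control, and whether levels follow UPF1 across the groups was not tested.

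CDC37L1-DT, whose start is 22 bases from that of CDC37L1, a relative of the gene of the HSP90 co-chaperone CDC37, was at 0.472 and 0.508 FPKM in siControl and 1.06 and 0.811 in siUPF1, and at 0.837 and 0.811 in MYC and 0.327 and 0.421 in MYC-UPF1. Neither pair of groups overlapped. The log2 fold changes were 0.38 (SE 0.110, limma adjusted p = 0.141) and -0.41 (SE 0.0990, limma adjusted p = 1.000), and with a pseudocount of 0.1 they were 0.80 and -0.97. The rise was 0.28 and not called without siUPF1 replicate 1, and the fall was called whichever library was left out, between -0.46 and -0.36. Its partner CDC37L1, at 4.16 and 5.08, 4.98 and 4.49, 3.53 and 3.26, and 3.34 and 3.66 FPKM in siControl, siUPF1, MYC and MYC-UPF1, overlapped in both comparisons. All values of CDC37L1-DT were under 1.1 FPKM on a transcript of 463 bases, and the counting error behind them is unknown.

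TBX2-AS1 went from 5.0 and 4.84 FPKM in MYC to 3.85 and 3.93 in MYC-UPF1, a log2 fold change of -0.28 that lost its call whichever of the 4 libraries was left out (-0.29 to -0.26) or on GC-adjusted values (-0.20). MRPL23-AS1 went from 0.916 and 0.947 to 0.691 and 0.519 FPKM, a log2 fold change of -0.27 that was not called without MYC replicate 1 (-0.28), MYC replicate 2 (-0.26) or MYC-UPF1 replicate 2 (-0.19), or on GC-adjusted values (-0.20). Of the 3 members, CDC37L1-DT was the only one with opposite calls in both comparisons on GC-adjusted values and with the replicate number as a block. Over all genes the overexpression changes ran against GC content (Spearman's rho -0.427 over 12707 genes, -0.181 over 364 members), the reverse of the depletion comparison.

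**Figure D2:**
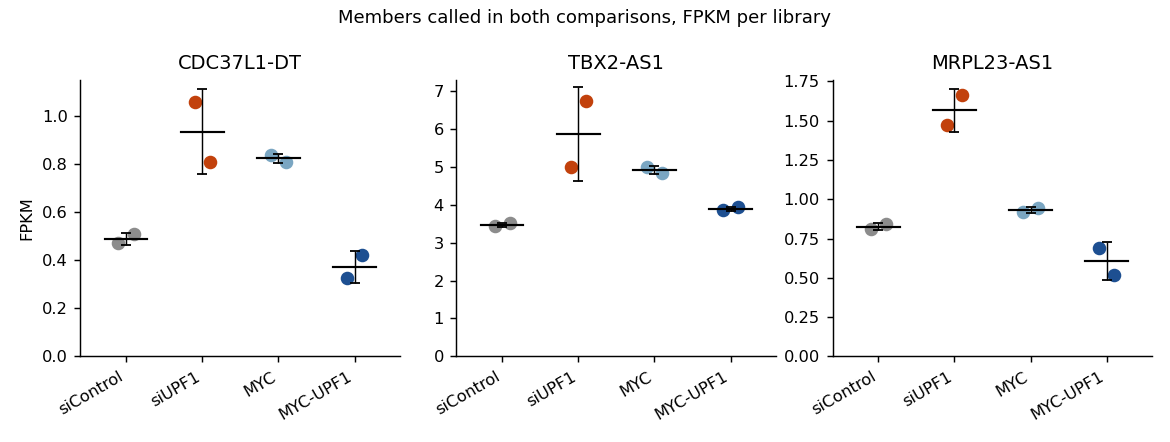
FPKM of CDC37L1-DT, TBX2-AS1 and MRPL23-AS1 in each library, with the mean and SD of each group of 2. In all 3 panels both siUPF1 points lie above both siControl points and both MYC-UPF1 points below both MYC points.

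**Figure D3:**
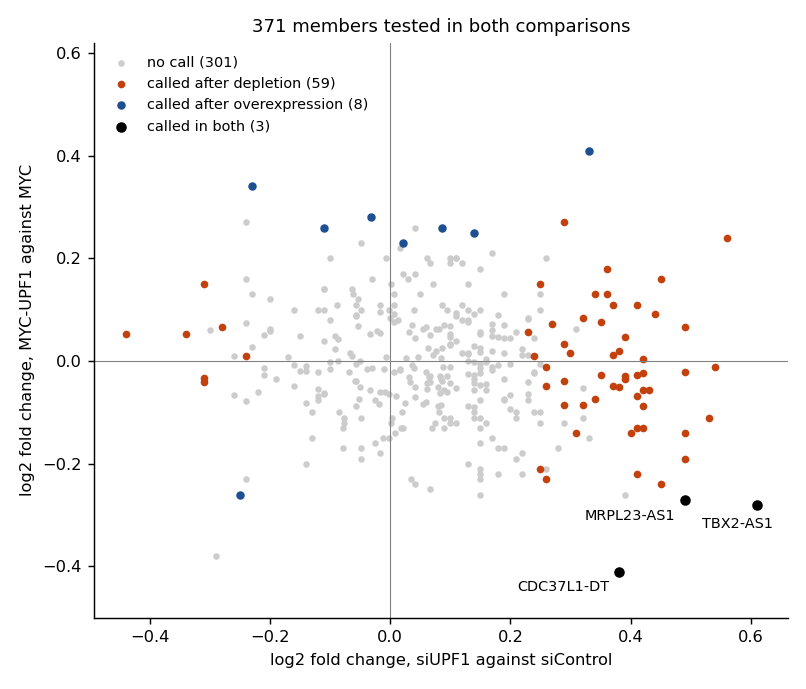
Log2 fold change after UPF1 depletion (x axis) and after UPF1 overexpression (y axis) of the 371 members tested in both, coloured by call. Of these, 59 were called after depletion alone, 8 after overexpression alone and 3, in the lower right, in both.

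Members were then set beside the gene whose name they carry. Both were tested in 211 pairs after depletion, and in 185 of these the partner had the higher level (median 8.86 FPKM against 1.24). In 128 pairs (60.7%) both changes had the same sign, where 279 of 402 members and 8247 of 13535 genes had a value above 0, and Pearson's r was 0.168 across pairs that share libraries. After overexpression 111 of 194 pairs had the same sign, and 0 pairs had both genes called. Whether counting used the strand is not stated for these files, so reads of a member and of an overlapping partner may be shared.

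After depletion 33 members and 37 partners of the 211 pairs were called, where 21.5% of all genes tested were called. Both genes were called in 7 pairs, 5 in the same direction and 2 in opposite directions. Whether 7 exceeds what these separate counts give was not tested, and the pairs are described only. PRDM16 rose with PRDM16-DT, from 0.798 and 0.850 to 1.05 and 1.3 FPKM. IGF2-AS rose from 0.502 and 0.482 to 0.881 and 0.954 FPKM, while IGF2, the imprinted growth factor gene that hepatoma cells express strongly, rose from 267 and 284 to 325 and 340. IGF2-AS was at 0.11 on the log2 scale and not called on GC-adjusted values, against 0.36 on the deposited values.

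C1RL-AS1 rose from 1.62 and 1.33 to 2.21 and 2.35 FPKM beside C1RL, a protease related to complement C1r, which rose from 6.80 and 7.28 to 9.04 and 8.58. The call of C1RL-AS1 (log2 fold change 0.41) was lost without siControl replicate 2, at 0.32. PSMG3-AS1 rose from 1.42 and 1.64 to 2.41 and 2.36 FPKM beside PSMG3, a proteasome assembly chaperone, which rose from 27.6 and 30.4 to 32.5 and 41.9. HS1BP3-IT1 rose from 0.870 and 0.846 to 1.13 and 1.29 FPKM within its host HS1BP3, which rose from 3.80 and 4.06 to 5.76 and 5.51. HS1BP3-IT1 (0.25) lost its call under each scaling (0.16 with quantile normalization) and without siControl replicate 1 (0.26), siControl replicate 2 (0.24) or siUPF1 replicate 2 (0.20), and PSMG3-AS1 on GC-adjusted values (0.20).

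In the opposite pairs the members moved away from their partners. NUP50-DT fell while NUP50 rose from 22.8 and 24.1 to 28.2 and 27.4 FPKM, without overlap in either gene. The GENCODE starts of these genes are 114 bases apart, and the promoter of NUP50-DT printed above holds an E-box. TPT1-AS1 rose from 1.88 and 1.91 to 2.61 and 2.87 FPKM, a log2 fold change of 0.37, while TPT1, which encodes the translationally controlled tumour protein, fell from 168 and 174 to 153 and 125. The rise of TPT1-AS1 was called whichever library was left out and under each scaling.

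Lists of lncRNAs by the role or place of the genes concerned, drawn up with earlier results of these data known, are given by their counts, to be read against the 21.5% of all genes called after depletion and the 1.43% after overexpression. Of 7 members near genes of liver or endoderm, 6 were tested after depletion and 0 were called (21.5% of all genes), and HNF4A-AS1 was the 1 called after overexpression (1.43% of all genes). SOX9-AS1 was under the minimum in the depletion libraries, and GATA6-AS1 (1.71 FPKM in siControl and 1.85 in siUPF1), LINC01146 (3.09 and 3.11) and LINC00574 (1.71 and 2.24) were not called. Of 4 transcripts of the HOX clusters, which set position along the body axis, HOXC-AS1 rose after depletion, from 0.718 and 0.702 to 1.5 and 1.07 FPKM. Its log2 fold change of 0.41 was 0.27 and not called without siUPF1 replicate 1 and 0.26 and not called on GC-adjusted values. HOXA-AS2, HOXC-AS3 and HOXD-AS2 were not called, and the median log2 fold change of the 4 was 0.23.

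Of 29 members described in cell proliferation or cancer, 3 rose and 1 fell after depletion (13.8% called, against 16.4% of members and 21.5% of all genes), and 0 of 28 tested were called after overexpression (1.43% of all genes). LINC00963 rose from 4.31 and 3.76 to 5.09 and 6.51 FPKM, a log2 fold change of 0.43 that was 0.35 and not called without siControl replicate 2 and 0.28 without siUPF1 replicate 2. NR2F1-AS1 rose from 1.89 and 1.63 to 2.62 and 2.38 FPKM (0.34, and 0.28 and not called without siControl replicate 2). TPT1-AS1 and MCM3AP-AS1 were the others. OIP5-AS1 (10.1 FPKM in siControl and 10.1 in siUPF1), LINC00467 (10.5 and 10.6) and EPB41L4A-AS1 (6.19 and 6.87) were among the 25 that were not called.

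Of 9 members beside genes of RNA decay, translation and splicing, 0 of 9 tested were called after depletion and 0 of 7 after overexpression (21.5% and 1.43% of all genes). They included DICER1-AS1 (0.457 and 0.604 FPKM in siControl and siUPF1) and EIF3J-DT (2.74 and 2.95). Among 31 lncRNAs with other kinds of name, 2 rose and 2 fell of 30 tested after depletion (13.3% called, against 21.5% of all genes). CASC9 and UCA1 rose, and NEAT1, the scaffold of nuclear paraspeckles, and HAGLR, a transcript of the HOXD cluster, fell. NEAT1 went from 31.4 and 35.0 to 13.8 and 21.9 FPKM, a log2 fold change of -0.89. On log2(FPKM + 1) this exceeded in size that of any member, but that scale understates the change of members with low FPKM, such as LINC02499. MALAT1, the other abundant nuclear lncRNA, was at 41.4 and 16.7 FPKM in siControl and 34.3 and 34.7 in siUPF1, so its control libraries differed more from each other than the groups did.

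The control groups of the experiments also differed from each other, which was not tested. Both MYC libraries lay above both siControl libraries for 70 members (17.3%, against 25.7% of all genes at the minimum) and below them for 167 (41.2%, against 41.2%). Median centring moved the shares over all genes to 37.8% above and 30.6% below, and quantile normalization to 33.9% and 34.6%. LINC00673 was at 7.0 and 7.26 FPKM in siControl and 1.90 and 2.30 in MYC, the largest difference of a member. PSMA3-AS1 was at 18.1 and 23.5 against 10.4 and 8.82 FPKM. These members were chosen after their values were seen. Vector and siRNA cannot be told apart here.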

How the data were processed

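RNA of 8 Huh7 libraries was sequenced in paired ends with a stranded poly(A) kit. Per the labels and the study's methods, the authors checked reads with FastQC 0.11.7, trimmed them with Trimmomatic 0.38, aligned them to hg19 with HISAT2 2.1.0 and assembled transcripts with StringTie 1.3.4d, and the deposited values are FPKM per gene. FPKM keeps no read depth, and whole reads could not be recovered from low values (at most 0.407% of 1722 low genes shared a ratio between libraries). The whole-series and single-library values were the same.

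Genes with a mean of at least 0.5 FPKM over the 4 libraries of a comparison were tested as log2(FPKM + 1) with limma 3.58.1 (R 4.3.3, lmFit and eBayes with a trend), and p-values were adjusted over all genes tested by the Benjamini-Hochberg method. The test was checked on simulated data. An exact permutation test of 2 libraries against 2 gives no two-sided p under 0.333 and was not used. Positions, exons and GC content came from GENCODE 44 on GRCh37. Alternatives were another pseudocount, other minimums, scalings, fits and thresholds, and leaving out each library. Named were the members at the edges of the rule, the 10 highest, the 10 largest rises, all falls, all overexpression calls, pairs with both genes called and called members of the lists. Some named members are not reported here. Members and lists were chosen with earlier results of these data known.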

Additional observations from a re-analysis of the deposited data

How the results depend on the processing

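After UPF1 depletion the 57 rises and 9 falls became 35 and 26 under quantile normalization, and the falls became 17 with median centring and 26 on GC-adjusted values. Leaving out 1 library gave 46 to 119 called members, with 39 to 88 rises and 7 to 31 falls, the highest of each without siUPF1 replicate 1. At an adjusted p of 0.05 there were 0 called, 0 rises and 0 falls in both comparisons (limma), where 66 and 11 members were called at an unadjusted p of 0.05. The median log2 fold change of 0.087 was 0.14 with a pseudocount of 0.1, 0.0048 under quantile normalization, 0.048 with median centring and 0.044 on GC-adjusted values.

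After UPF1 overexpression the 11 calls (7 rises and 4 falls) became 20 (12 and 8) with no FPKM minimum, 3 (2 and 1) with a minimum of 1, 21 (13 and 8) on GC-adjusted values, 6 (3 rises) with a fold change of at least 1.2, and 7 falls without the variance trend. Leaving out 1 library gave 10 to 23 calls, with 3 to 13 rises and 3 to 10 falls. The 3 members called in both comparisons became 1 with a minimum of 1 and 1 to 4 on leaving out a library. On GC-adjusted values they were CDC37L1-DT, LINC01515 and ZSCAN16-AS1. The median log2 fold change of -0.011 lay between -0.027 and 0.016 on leaving out a library. Partners with the same direction became 5 and 0 where both genes had to be called, and members with MYC above siControl became 110 with median centring. Counts over all genes under these settings are not given here for either comparison. The causes were not tested.

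Same-numbered libraries did not deviate together, so the replicate numbers do not pair the libraries. The correlation of deviations was -0.129 and -0.569 over all genes tested, and 0.038 and -0.265 over members. Over all genes at the minimum, MYC replicate 1 and MYC-UPF1 replicate 2 correlated at 0.9970, and MYC replicate 2 and MYC-UPF1 replicate 1 at 0.9964. Within the groups these were 0.9945 (MYC) and 0.9942 (MYC-UPF1). The main fits had no term for such pairs. With the replicate block there were 53 rises and 7 falls after depletion, 4 calls (2 and 2) after overexpression and 1 member called in both. With the crossed replicate block, added after seeing the data, there were 42 calls (20 and 22) after overexpression and 6 members called in both.

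Called members kept their direction in every alternative run that had a value for them. Only the scalings could have reversed it, since both treated libraries of each called member lay beyond both control libraries. Of the 66 called after depletion, 22 lost the call under quantile normalization, 13 with median centring and 19 of 64 on GC-adjusted values. The unknown read depth limits all members, of which 137 averaged under 1 FPKM.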
